A study of Mus musculus with 8 samples.

Results

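The 42 genes described here make fat and cholesterol in the liver, or control the genes that do. They were chosen by name as a list of 7 regulators, 5 enzymes of fatty acid synthesis, 7 fatty acid elongases, 7 desaturases, 8 enzymes of glycerolipid synthesis and related proteins, and 8 enzymes of cholesterol synthesis, and all 42 were found among the 21938 protein-coding genes of the annotation. H3K27-me3, trimethylation of lysine 27 on histone H3, is a mark laid down by the Polycomb system and associated with silent genes, and JMJD3, encoded by Kdm6b, is an enzyme that removes it. In hepatocytes, the transcription factors SREBP1c and ChREBP drive fatty acid synthesis in the fed state and SREBP2 drives cholesterol synthesis, and during fasting lipogenesis is low. Several of these enzymes belong to families in which 1 member works mainly in the liver while others serve skin, brain or other tissues. Scd1, for example, is the main stearoyl-CoA desaturase of mouse liver.

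H3K27-me3 was profiled by ChIP-seq in livers of male C57BL/6 mice, all of which carried a floxed JMJD3 allele. At 8 weeks of age the mice received either AAV-TBG-Cre, in which the TBG promoter drives Cre recombinase in hepatocytes, or the control AAV-GFP, and 12 weeks later they were fasted for 16 h. There were 2 ChIP and 2 input libraries for each virus, with chromatin from minced whole liver, so that cells other than hepatocytes, in which the TBG promoter is not active, contributed as well. The deposited data are 2 lists of enriched regions, 1 for each virus, each made from both replicates. These lists hold no value for a single mouse, and a difference between the lists cannot be compared with the variation among mice. Intervals given below are Wilson 95% intervals and cover counting error only. The AAV-Cre list held 59267 regions with a median width of 753 bp and a shortest region of 300 bp, and the AAV-GFP list held 34586 regions with a median width of 231 bp and a shortest of 120 bp. These are properties of each peak call, and read depth is not known. Genes with a region within 15 kb of any of their start sites are termed marked, 15 kb being the window of the study, and windows of 1 and 50 kb were used beside it. A gene without a region may still carry the mark below the level at which regions were called.

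H3K27-me3 regions lay within 1 kb of a start site at 7 of the 42 genes (16.7%) in AAV-Cre and 6 (14.3%) in AAV-GFP. Of all protein-coding genes, 23.9% and 16.6% had such a region. Regions within 1 kb were present in both lists at 6 genes, the elongases Elovl4 and Elovl7 and the desaturases Scd2, Scd3, Scd4 and Fads3, and in the AAV-Cre list alone at Pnpla3, which encodes a lipid droplet protein with lipase and acyltransferase activity. The same 7 genes were the ones with a region anywhere in the gene body. The bodies of the other 35 genes held no region in either list, and these included Scd1, Fads1, Fads2, Fasn, Acly, Acaca, Acacb, Srebf1, Srebf2 and all 8 enzymes of cholesterol synthesis.

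The sequences upstream of 5 of the 7 start sites, and of 1 unmarked elongase, are given to show what these places look like. They are taken from RefSeq (GRCm38.p6, the assembly that mm10 names), run from 5′ to 3′ on the strand of the gene, and have CG dinucleotides in capitals. Elovl4 (chr9:83806306-83806555, minus strand), Elovl7 (chr13:108214154-108214403, plus strand) and Fads3 (chr19:10041298-10041547, plus strand) are rich in CG. Scd3 (chr19:44203038-44203268, plus strand, 231 bases) has none, although it lay inside an AAV-Cre region. Pnpla3 (chr15:84167566-84167815, plus strand) is shown because an AAV-Cre region ended within it. Elovl5 (chr9:77917115-77917363, plus strand, 249 bases) is shown for contrast, as a CG-rich start site that was farther from any AAV-Cre region than that of the other 41 genes.
Elovl4: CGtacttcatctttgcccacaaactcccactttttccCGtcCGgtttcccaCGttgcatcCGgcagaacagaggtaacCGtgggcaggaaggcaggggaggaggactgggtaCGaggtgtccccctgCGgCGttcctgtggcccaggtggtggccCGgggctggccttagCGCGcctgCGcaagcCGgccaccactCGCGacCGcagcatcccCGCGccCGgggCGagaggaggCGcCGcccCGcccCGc
Elovl7: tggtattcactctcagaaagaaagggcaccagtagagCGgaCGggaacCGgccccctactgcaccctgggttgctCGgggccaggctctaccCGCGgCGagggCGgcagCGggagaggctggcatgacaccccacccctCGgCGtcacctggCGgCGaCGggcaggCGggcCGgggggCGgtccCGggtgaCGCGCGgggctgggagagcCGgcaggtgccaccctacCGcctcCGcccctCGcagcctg
Fads3: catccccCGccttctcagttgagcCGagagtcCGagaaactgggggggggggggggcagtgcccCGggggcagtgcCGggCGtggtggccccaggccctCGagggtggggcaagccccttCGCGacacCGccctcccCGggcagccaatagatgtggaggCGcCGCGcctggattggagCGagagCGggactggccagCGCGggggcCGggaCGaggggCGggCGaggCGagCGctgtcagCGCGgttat
Scd3: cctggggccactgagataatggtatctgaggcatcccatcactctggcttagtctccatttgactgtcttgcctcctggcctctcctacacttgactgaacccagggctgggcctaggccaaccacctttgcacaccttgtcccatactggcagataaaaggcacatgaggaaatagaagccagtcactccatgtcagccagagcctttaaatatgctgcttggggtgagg
Pnpla3: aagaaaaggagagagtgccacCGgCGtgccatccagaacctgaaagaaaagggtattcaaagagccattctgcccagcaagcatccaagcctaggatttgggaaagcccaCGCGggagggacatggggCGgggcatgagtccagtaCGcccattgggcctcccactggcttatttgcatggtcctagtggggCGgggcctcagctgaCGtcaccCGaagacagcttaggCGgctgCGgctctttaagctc
Elovl5: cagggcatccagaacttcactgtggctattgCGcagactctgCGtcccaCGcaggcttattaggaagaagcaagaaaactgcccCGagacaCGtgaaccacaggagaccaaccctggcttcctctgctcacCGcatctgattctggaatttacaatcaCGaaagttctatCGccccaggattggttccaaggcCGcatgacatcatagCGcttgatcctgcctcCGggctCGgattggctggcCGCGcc
In the AAV-Cre list, all 250 bases of Elovl4, Elovl7 and Fads3 and all 231 bases of Scd3 were inside a region, as were 211 of the 250 bases of Pnpla3 and 0 of the 249 bases of Elovl5. In the AAV-GFP list the regions took in 250 bases of Elovl4, 146 of Elovl7, 250 of Fads3 and 0 of Scd3, Pnpla3 and Elovl5. The number of CG dinucleotides was 25 in Elovl4, 25 in Elovl7, 26 in Fads3, 11 in Pnpla3, 14 in Elovl5 and 0 in Scd3.

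Whether these genes were marked more or less often than others was examined by counting. Within 15 kb, 14 of the 42 genes (33.3%, with an interval of 21.0 to 48.4%) were marked in the AAV-Cre list, where 41.5% of all protein-coding genes were. In the AAV-GFP list 9 genes (21.4%, interval 11.7 to 35.9%) were marked, against 27.9% of all genes. All 9 were marked in both lists, where 26.7% of all genes were, and 5 genes (11.9%, interval 5.19 to 25.0%) were marked in the AAV-Cre list only, against 14.8% of all genes. None of the 42 was marked in the AAV-GFP list only, which allows a share of up to 8.38%, and 1.22% of all genes were. Each of these intervals includes the share of all genes, so these counts did not set the 42 genes apart from protein-coding genes in general.

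Shares at other windows were as follows. Within 1 kb, 7 genes (16.7%, interval 8.32 to 30.6%) had a region in AAV-Cre against 23.9% of all genes, 6 (14.3%, interval 6.72 to 27.8%) in AAV-GFP against 16.6%, and 1 (2.38%, interval 0.422 to 12.3%) in AAV-Cre only against 7.62%. Within 50 kb, 27 genes (64.3%) were marked in AAV-Cre against 61.7% of all genes, 18 (42.9%) in AAV-GFP against 46.6%, and 9 (21.4%) in AAV-Cre only against 17.2%. Within 5 kb, 0 genes (up to 8.38%) were marked in AAV-Cre only, where 10.2% of all genes were. Here the share of all genes lay outside the interval, which is 1 of many given. At 1, 15 and 50 kb the interval for AAV-Cre only included the share of all genes. A region overlapped the gene body at 7 of the 42 genes (16.7%, interval 8.32 to 30.6%) in either list, where 28.8% of all genes had one in AAV-Cre and 20.7% in AAV-GFP. Shares by window, plotted for both lists, set the 42 genes beside all genes and beside 2 further lists.

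**Figure D1:**
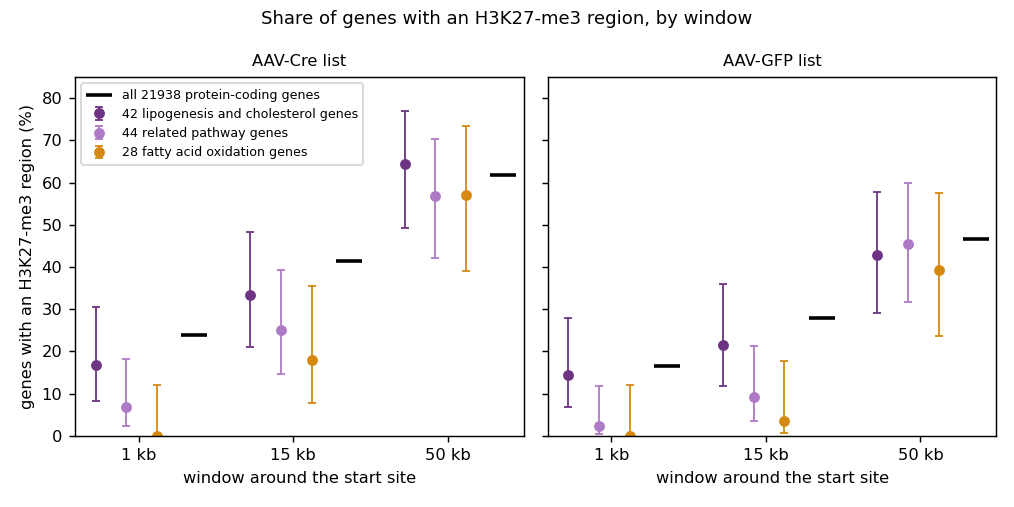
Share of genes (percent, vertical axis) with an H3K27-me3 region within 1, 15 or 50 kb of a start site (horizontal axis), in the AAV-Cre list on the left and the AAV-GFP list on the right. Points are shares of a gene list with Wilson 95% intervals and black bars the share of all 21938 protein-coding genes. The interval of the 42 genes includes the black bar at every window. Those of the 44 related pathway genes and of the 28 fatty acid oxidation genes lie below it at 1 and 15 kb in both lists.

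The distance from a start site to the nearest region ran from 0 to 134256 bp in AAV-Cre, with a median of 36800 bp for the 42 genes and 26700 bp for all genes. In AAV-GFP it ran from 0 to 464766 bp, with medians of 60200 and 58300 bp. The nearest region was closer in AAV-Cre at 37 of the 42 genes (88.1%, interval 75.0 to 94.8%), at the same distance at 5 and closer in AAV-GFP at 0 (up to 8.38%). Of all genes, 76.9% had the closer region in AAV-Cre and 12.2% had it in AAV-GFP. The former share lay inside the interval of the 42 genes, and the latter above it.

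**Figure D2:**
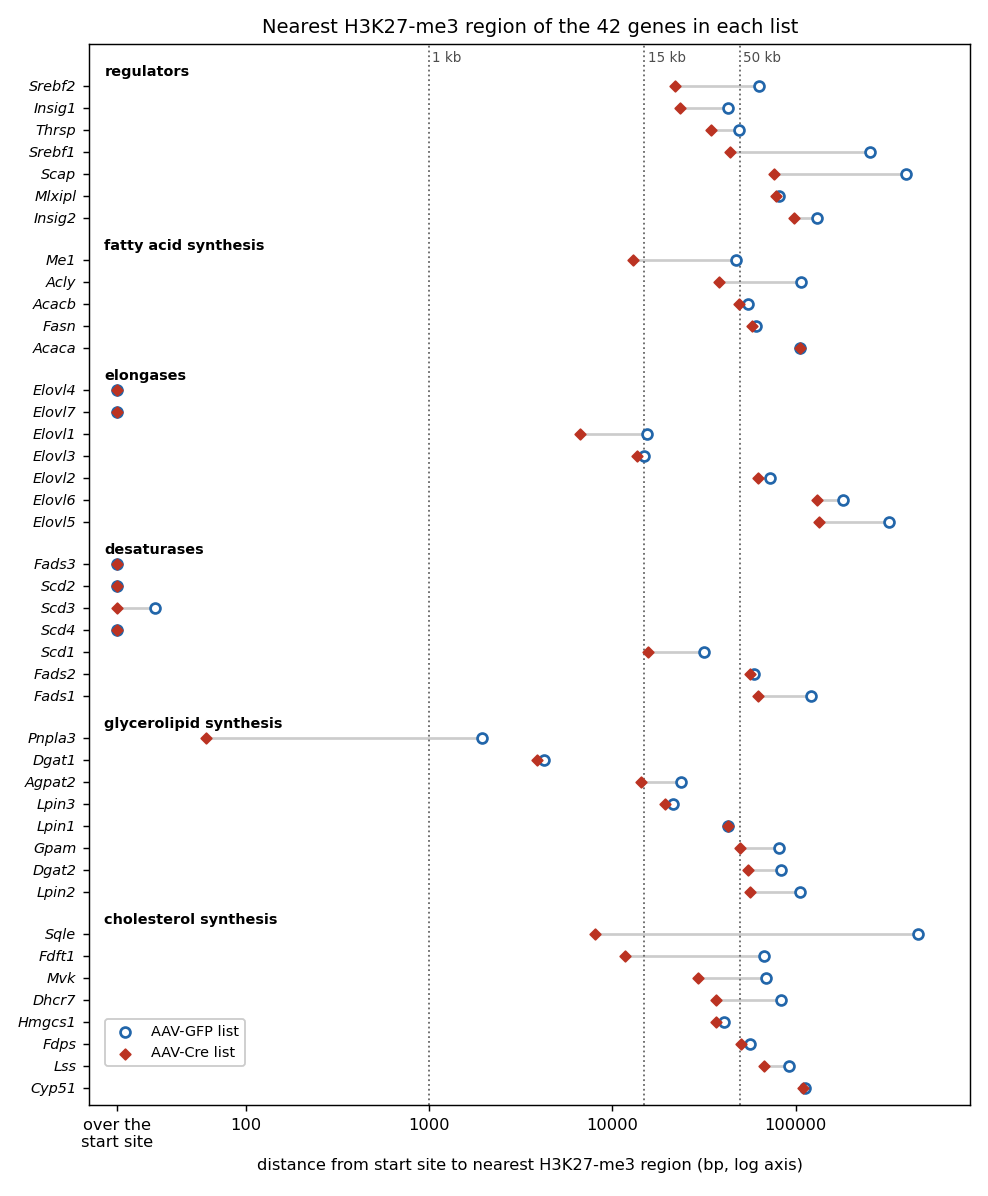
Distance from the start site to the nearest H3K27-me3 region (bp, log axis, with regions over a start site drawn at the left end) for each of the 42 genes, grouped by role. Red diamonds are the AAV-Cre list, open blue circles the AAV-GFP list, and dotted lines mark 1, 15 and 50 kb. Elongases and desaturases hold the genes at the left end, while the 7 regulators all lie beyond 15 kb in both lists.

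Among the regulators, 0 of 7 were marked within 15 kb in either list (interval up to 35.4%), beside 41.5% of all genes in AAV-Cre and 27.9% in AAV-GFP. Srebf2 was marked in AAV-Cre when the start sites of every annotated transcript were counted. Within 50 kb, 4 of the 7 were marked in AAV-Cre (57.1%) and 2 in AAV-GFP (28.6%), beside 61.7% and 46.6% of all genes. Their nearest AAV-Cre regions lay from 21967 bp (Srebf2) to 98336 bp (Insig2) away. Srebf1 and Srebf2, which encode the SREBP transcription factors, had their nearest AAV-Cre regions at 44046 and 21967 bp. Both regions were closer to another gene, the first over the start site of Rai1 and the second nearest to Ccdc134. Scap, which escorts SREBPs out of the endoplasmic reticulum, had its nearest AAV-Cre region at 76450 bp and its nearest AAV-GFP region at 401154 bp. At Mlxipl, which encodes ChREBP, the distances were 78108 and 80898 bp, and the nearest gene to both regions was Stx1a. Insig1 and Insig2, whose products hold SCAP back when sterols are plentiful, had AAV-Cre regions of 606 and 345 bp at 23463 and 98336 bp downstream. Thrsp, a protein induced with lipogenesis, had its nearest regions at 34498 bp in AAV-Cre and 49341 bp in AAV-GFP.

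The enzymes that build palmitate lay as far away. Acly, which makes cytosolic acetyl-CoA from citrate, had its nearest AAV-Cre region at 38477 bp and its nearest AAV-GFP region at 107559 bp. The acetyl-CoA carboxylases Acaca and Acacb, which make malonyl-CoA, had AAV-Cre regions at 105467 and 49197 bp and AAV-GFP regions at 105691 and 54903 bp. The regions nearest to Acaca overlapped between the lists and were closer to Dusp14. Fasn, the fatty acid synthase, had regions at 57648 bp in AAV-Cre and 61231 bp in AAV-GFP, both closer to Hmga1b. The malic enzyme Me1, a source of NADPH, was the 1 marked gene of the 5, although Acacb was also marked in AAV-Cre with the start sites of every annotated transcript. Me1 was marked in AAV-Cre only, by a region of 309 bp (chr9:86708966-86709274) 13013 bp upstream of its start site in intergenic sequence. This region had a fold enrichment over input of 2.56 and a q-value of 0.023. Me1 was the closest gene to this region, which was near the lower width limit of the list, and in AAV-GFP the nearest region lay at 47208 bp, over the start site of Prss35.

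Among the elongases, which lengthen fatty acids beyond palmitate, 4 of 7 were marked within 15 kb in AAV-Cre (interval 25.0 to 84.2%) and 3 in AAV-GFP (interval 15.8 to 75.0%). These intervals include the 41.5% and 27.9% of all genes. Elovl4, which makes very long-chain fatty acids of retina, skin and brain, had the start-site region with the lowest q-value among the 42 genes in the AAV-Cre list. This AAV-Cre region (chr9:83803617-83807472, 3856 bp, fold 13.4, q = 1.36e-63) ranked in the top 0.38% of the list by p-value and overlapped exon and intron sequence. The AAV-GFP region there (chr9:83805170-83807234) was 2065 bp wide with a fold of 3.5 and q = 1.16e-10, and was followed inside the gene by 3 shorter regions of 133 to 508 bp. Folds depend on the depth of each list and are not compared between lists. At Elovl7, an elongase of saturated and polyunsaturated chains, an AAV-Cre region of 3528 bp (chr13:108213230-108216757, fold 7.46, q = 1.61e-27) and an AAV-GFP region of 963 bp (chr13:108214258-108215220, fold 4.19, q = 4.31e-09) both took in the start site. At both genes the mark stayed near the 5′ end, covering 12.0% of the body of Elovl4 and 5.03% of that of Elovl7 in AAV-Cre and 7.31% and 1.45% in AAV-GFP.

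The other 2 marked elongases carried the mark of a neighbour. Elovl3, known from skin and brown fat, came within the window through regions of Pitx3, 1 of 4488 bp (chr19:46146608-46151095, fold 5.82) over the start site of that gene at 14711 bp, 1 of 351 bp at 13631 bp in AAV-Cre, and 1 of 577 bp at 14908 bp in AAV-GFP. The last of these lay only just inside 15 kb. Elovl1, an elongase of very long saturated chains, had AAV-Cre regions and no AAV-GFP region within 15 kb, but its nearest AAV-GFP region lay just outside, at 15554 bp. The AAV-Cre region of 1339 bp (chr4:118436354-118437692, fold 7.69, q = 1.34e-25) covered the start site of Cdc20, a cell-cycle gene, and was not in the AAV-GFP list. Another, 472 bp wide, was also closest to Cdc20. Elovl2, Elovl5 and Elovl6 had their nearest AAV-Cre regions at 62051, 134256 and 130429 bp. Elovl5 and Elovl6, the main elongases of liver for polyunsaturated chains and for palmitate, were the 2 genes of the 42 farthest from any AAV-Cre region.

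The desaturases, which introduce double bonds, differed between close relatives. The 4 Scd genes lie side by side on chromosome 19 in the order Scd3, Scd2, Scd4 and Scd1. H3K27-me3 regions lay in the bodies of the first 3 in both lists, and none lay in that of Scd1. In AAV-Cre, regions of 3264, 3107 and 1882 bp upstream of Scd3 were closest to Pkd2l1, and further regions lay beyond Scd1. From Scd3 to Scd1 (chr19:44203269-44407879, 204611 bp), 46 AAV-Cre regions covered 137523 bp (67.2%), and 116 AAV-GFP regions covered 52862 bp (25.8%). Of these, 45 of the AAV-Cre regions and 68 of the AAV-GFP regions had a q-value of 0.05 or lower. The whole lists covered 73.7 Mb in AAV-Cre and 14.9 Mb in AAV-GFP, so wider cover in AAV-Cre was general. The widest AAV-Cre region there spanned 30590 bp (chr19:44236016-44266605, fold 8.13, q = 1.99e-28), from the 3′ part of Scd3 into the space before Scd2, and was the 5th widest of its list. The widest AAV-GFP region spanned 3751 bp. Since broad domains were called as narrow peaks, the number of regions reflects how a domain was split, and the covered length is the better measure.

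Coverage differed from gene to gene along this cluster. The body of Scd2, a desaturase of brain and of the developing animal, was covered over 97.4% in AAV-Cre and 41.2% in AAV-GFP. That of Scd3, known from skin, was covered over 62.6% and 8.57%, and the body of Scd4, known from heart, over 70.2% and 12.5%. The sequence between Scd3 and Scd2 was covered over 96.2% in AAV-Cre and 60.9% in AAV-GFP, that between Scd2 and Scd4 over 81.6% and 39.6%, and that between Scd4 and Scd1 over 42.8% and 3.36%. The body of Scd1 (13425 bp) held 0 regions in both lists. Its nearest AAV-Cre region was 364 bp wide and lay 15716 bp upstream, just outside the window, with q = 0.023, and its nearest AAV-GFP region lay at 31780 bp.

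**Figure D3:**
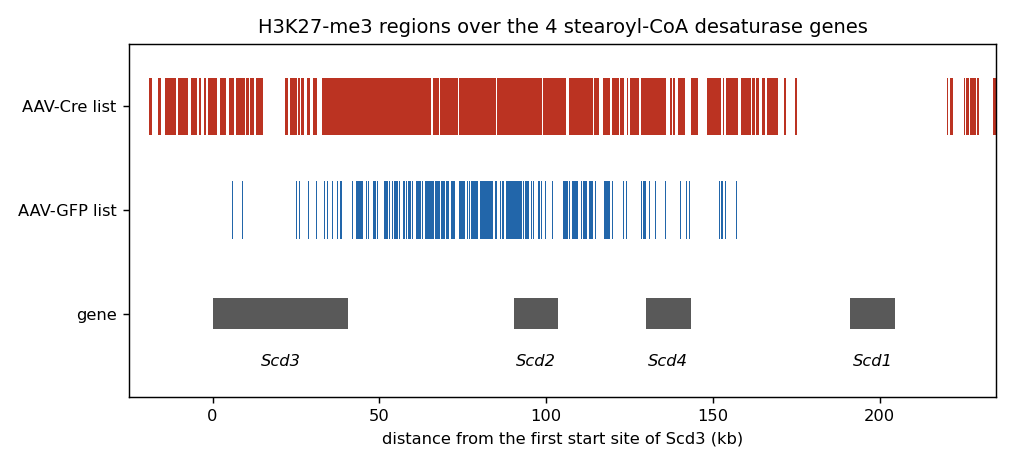
H3K27-me3 regions of the AAV-Cre list (red) and the AAV-GFP list (blue) over the 4 stearoyl-CoA desaturase genes (grey bars), drawn to scale as distance from the first start site of Scd3 (kb). Regions of the AAV-Cre list are dense from Scd3 to Scd4, and others lie before Scd3 and beyond Scd1. Those of the AAV-GFP list are dense between Scd3 and Scd4 but cover 8.57% of Scd3 and 12.5% of Scd4. Of the sequence from Scd3 to Scd1, 67.2% is covered in AAV-Cre and 25.8% in AAV-GFP, and there are no regions over Scd1.

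At the start sites of these genes the 2 lists differed in width. At Scd2 an AAV-Cre region of 13613 bp (chr19:44288526-44302138, fold 10.3, q = 1.76e-41) and an AAV-GFP region of 3751 bp (chr19:44292227-44295977, fold 3.12, q = 1.34e-06) took in the start site. At Scd4 the regions were 7664 bp (chr19:44331637-44339300, fold 5.87, q = 5.67e-16) and 951 bp (chr19:44332293-44333243, fold 3.3, q = 3.51e-04). Scd3 has 2 annotated start sites. The upstream one, whose CG-free sequence is printed above, lay inside an AAV-Cre region of 1692 bp (chr19:44202926-44204617, fold 3.07, q = 1.80e-04), with the nearest AAV-GFP region 5881 bp away. The downstream one lay inside the widest AAV-Cre region, and in AAV-GFP a region of 152 bp (chr19:44237632-44237783, q = 0.0342) ended 32 bp before it. Scd3 therefore counts as marked in both lists within 1 kb, but in AAV-GFP only at its downstream start site.

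The Fads genes, which desaturate polyunsaturated fatty acids, are also neighbours on chromosome 19, and the mark was limited to Fads3. An AAV-Cre region of 3348 bp (chr19:10040707-10044054, fold 8.53, q = 4.99e-43, top 1.54% of its list by p-value) and an AAV-GFP region of 1610 bp (chr19:10040904-10042513, fold 5.25, q = 1.21e-16, top 1.8%) both took in its start site. A further 4 AAV-Cre regions of 462 to 1240 bp lay within 15 kb, 3 of them in the neighbouring gene Rab3il1, and had no counterpart in AAV-GFP. Fads2 and Fads1, the delta-6 and delta-5 desaturases of liver, and the sequence between the genes held 0 regions in either list. The nearest regions to Fads2 were those in Fads3, at 56803 bp in AAV-Cre and 59233 bp in AAV-GFP.

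**Figure D4:**
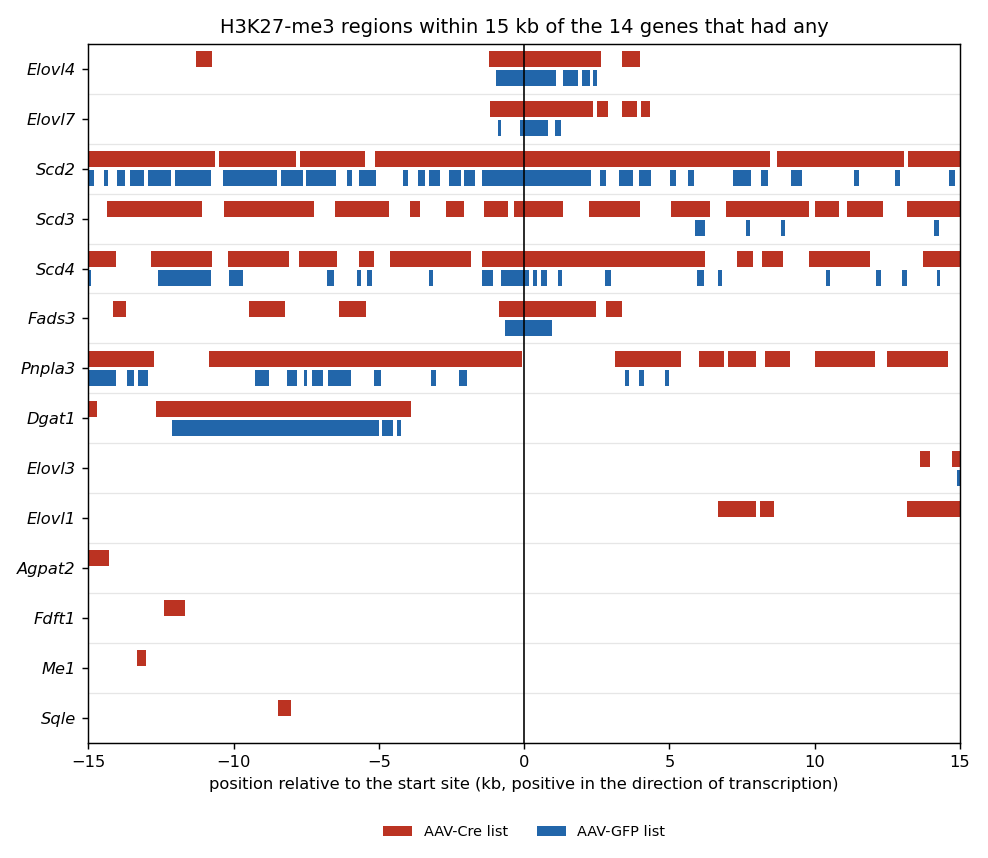
H3K27-me3 regions of the AAV-Cre list (red) and the AAV-GFP list (blue) within 15 kb of the start site of the 14 genes that had any, as position in kb relative to the start site, positive in the direction of transcription. For genes with several start sites the one closest to an AAV-Cre region is at 0, and the most upstream of them where several are equally close. Regions sit on the start site of Elovl4, Elovl7, Scd2, Scd4 and Fads3 in both lists, and for the 7 genes from Dgat1 to Sqle they lie at 3902 bp or more from it.

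Of the 8 genes of glycerolipid synthesis, Pnpla3 was the one with regions inside the gene. A variant of the human gene is known for its link to fatty liver. An AAV-Cre region of 10777 bp (chr15:84157000-84167776, fold 6.87, q = 4.50e-21), in intergenic sequence, ended 61 bp upstream of the start site, and the AAV-Cre list had 8 regions within 15 kb, of which 6 lay inside the gene. The AAV-GFP list had 14 regions of 127 to 1582 bp within 15 kb, all of which overlapped an AAV-Cre region, the nearest of them 1952 bp upstream with q = 0.03. Regions covered 60.9% of the body of Pnpla3 in AAV-Cre and 3.22% in AAV-GFP. Its call at 1 kb in AAV-Cre only therefore stands on the edge of a domain that both lists contain.

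The other 2 marked genes of this group lay beside marked neighbours. Dgat1, which makes triglyceride from diacylglycerol, lies next to Scrt1, which encodes a neural transcription factor. An AAV-Cre region of 8782 bp (chr15:76515853-76524634, fold 13.5, q = 1.71e-68, top 0.262% by p-value) covered the start site of Scrt1 and came within 3902 bp of that of Dgat1. In AAV-GFP a region of 7113 bp (chr15:76516956-76524068, fold 5.37, q = 4.96e-19) covered the start site of Scrt1, and regions of 136 and 392 bp in an exon of Scrt1, at 4256 and 4511 bp, had q-values of 0.0671 and 0.605. Agpat2, an acyltransferase that makes phosphatidic acid, was marked in AAV-Cre only, by a region of 1408 bp (chr2:26618611-26620018, fold 3.21, q = 2.91e-04) at 14279 bp, which lay inside the annotated gene Gm20532 and had the start site of Fam69b as the closest. Gpam, Lpin1, Lpin2, Lpin3 and Dgat2 had nearest AAV-Cre regions from 19326 bp (Lpin3, closest gene Emilin3) to 56209 bp (Lpin2, closest gene Emilin2). That of Dgat2, at 55012 bp, was closest to Mogat2.

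In the cholesterol pathway, 2 of the 8 enzymes were marked within 15 kb in AAV-Cre (interval 7.15 to 59.1%) and 0 in AAV-GFP (interval up to 32.4%), which includes the 41.5% and 27.9% of all genes. Sqle, the squalene epoxidase, had a region of 436 bp in intergenic sequence (chr15:59306621-59307056, fold 3.43, q = 2.27e-05) at 8025 bp upstream, and was the closest gene to it. In AAV-GFP the nearest region was at 464766 bp, the longest distance among the 42 genes in that list. Fdft1, the squalene synthase, had a region of 706 bp (chr14:63191259-63191964, fold 2.6, q = 0.00792) at 11681 bp, which overlapped an exon of Neil2 and was closest to that gene. The other 6 enzymes lay at 29521 bp (Mvk), 36649 bp (Dhcr7), 37048 bp (Hmgcs1), 50281 bp (Fdps), 67286 bp (Lss) and 110100 bp (Cyp51) from an AAV-Cre region, and of these 6 the region of Mvk was the one closest to the enzyme itself. Within 50 kb, 4 of the 8 enzymes (Dhcr7, Fdft1, Mvk and Sqle) had a region in AAV-Cre only (interval 21.5 to 78.5%), and 1 (Hmgcs1) had a region in both. The share of all genes with a region in AAV-Cre only, 17.2%, lay below this interval, which is 1 of many given here and rests on 8 genes.

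Of the 5 genes marked in AAV-Cre only, Me1 and Sqle were thus the 2 that were the closest gene to their region. The regions at Agpat2 and Fdft1 were closest to Fam69b and Neil2, and those at Elovl1 to Cdc20. The regions at Me1 and Sqle were among the narrower ones of their list, in which 98.9% and 82.4% of regions were at least as wide. A q-value of 0.05 or lower was held by 88.6% of the AAV-Cre regions and 46.8% of the AAV-GFP regions. Whether the sites at Me1 and Sqle differed between the groups cannot be tested without values for each mouse. Over all 14 marked genes, the AAV-Cre list held 69 different regions within 15 kb. Of these, 38 were within 15 kb of a start site of an Scd gene. A total of 55 were closest to 1 of the 42 genes, and 32 overlapped an AAV-GFP region. The AAV-GFP list held 99 such regions, of which 73 were within 15 kb of a start site of an Scd gene. Of the 99, 97 were closest to 1 of the 42 genes and 96 overlapped an AAV-Cre region. Over the whole lists, 24.2% of AAV-Cre regions and 86.4% of AAV-GFP regions overlapped the other list.

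For the 28 genes marked in neither list, the nearest AAV-Cre region lay 15716 to 134256 bp away (median 52600 bp) and the nearest AAV-GFP region 21425 to 401154 bp away (median 80900 bp). In AAV-Cre 23 of these 28 regions had another gene as the closest, and the 5 exceptions were at Scd1, Gpam, Mvk, Insig1 and Insig2. The 5 genes farthest from an AAV-Cre region were Elovl5, Elovl6, Cyp51, Acaca and Insig2. Of the 28 nearest AAV-GFP regions, 25 overlapped an AAV-Cre region, and 4 of the 28 nearest AAV-Cre regions overlapped an AAV-GFP region, beside 86.4% and 24.2% of all regions in the respective lists.

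Because Polycomb proteins are known to favour CG-rich start sites, the ratio of observed to expected CG dinucleotides was computed within 500 bp of each start site, taking the most upstream one. The median ratio was 0.695 for the 42 genes and 0.571 for all protein-coding genes. Marked start sites fell on both sides of the median of all genes, while the lowest ratio of the 42 (0.0965, Lpin1) and the highest (1.08, Lpin2) were at unmarked ones. Elovl4 (0.836), Elovl7 (0.772), Fads3 (0.737) and Pnpla3 (0.678) were above the median of all genes, and Scd2 (0.442), Scd3 (0.196) and Scd4 (0.171) below it. Among their relatives without a region within 1 kb, the ratio was 0.907 at Fads1, 0.746 at Fads2, 0.826 at Elovl5 and 0.525 at Scd1. Of 9 genes with a ratio below 0.3, Scd4 was marked within 1 kb in both lists and so was Scd3, in AAV-GFP through its downstream start site, and of all 7021 such genes 14.3% were marked in AAV-Cre and 5.64% in AAV-GFP. Of 7 genes with a ratio from 0.3 to below 0.6, 1 was marked in each list, where 39.8% and 27.3% of 4499 such genes were. Of 26 genes with a ratio of 0.6 or more, 4 were marked in AAV-Cre and 3 in AAV-GFP, where 23.5% and 19.3% of 10418 such genes were. The shares of all genes were thus highest in the middle class.

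**Figure D5:**
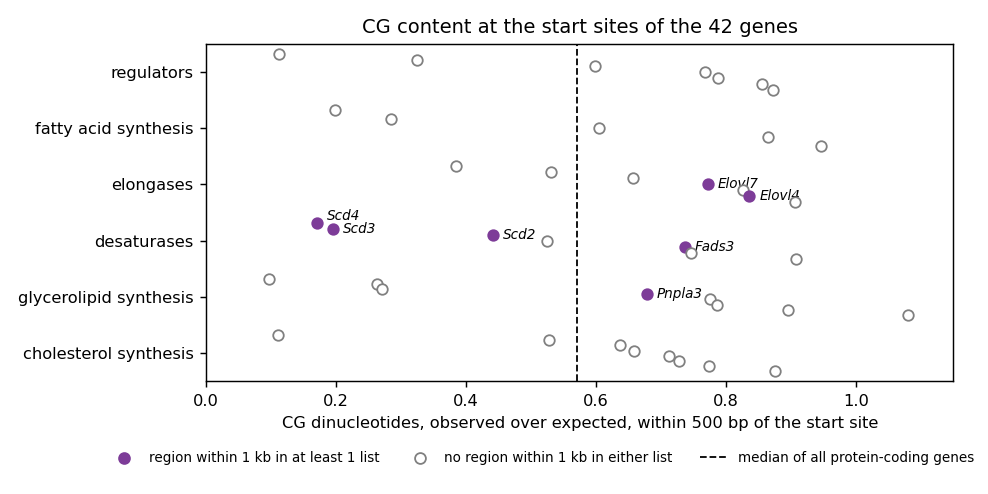
Observed over expected CG dinucleotides (horizontal axis, a ratio without unit) within 500 bp of the most upstream start site of the 42 genes, by role, with small vertical offsets for legibility. Filled points had an H3K27-me3 region within 1 kb of a start site in at least 1 list, open points had none, and the dashed line is the median of all protein-coding genes (0.571). Filled points lie on both sides of the line, with Scd4 and Scd3 at 0.171 and 0.196 and Elovl4 at 0.836.

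A form of the sterol regulatory element to which SREBPs bind, TCACNCCAC, where N is any base, was searched on both strands of the RefSeq promoters, from 250 bases before to 50 after a start. The table held 48 promoters of 33 of the 42 genes. The motif was present in 2 of these 48 promoters (4.17%), those of Hmgcs1 and Mlxipl, and in 408 of 32851 promoters (1.24%) overall. Neither gene was marked within 15 kb. Promoters of Dgat1, Dgat2, Elovl3, Fads1, Fdft1, Fdps, Scd1, Scd2 and Sqle were not searched here.

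Other genes of the same pathways were counted for comparison. Of 44 related genes, among them Acss2 and the acyl-CoA synthetases, 11 (25.0%, interval 14.6 to 39.4%) were marked within 15 kb in AAV-Cre. In AAV-GFP 4 were (9.09%, interval 3.59 to 21.2%), beside the 41.5% and 27.9% of all genes. The 4 were Acss2, Agpat4, Mvd and Slc25a1, and Agpat3, Hacd4, Mlx, Mlycd, Mogat2, Nr1h2 and Usf1 were marked in AAV-Cre alone. Within 1 kb, Agpat4 was marked in both lists and Hacd4 and Mogat2 in AAV-Cre. Of 28 genes of fatty acid oxidation, which runs during fasting, 5 (17.9%, interval 7.88 to 35.6%) were marked within 15 kb in AAV-Cre, namely Acadl, Acadvl, Cpt1a, Etfa and Etfb, and 1 (3.57%, interval 0.633 to 17.7%), Acadvl, in AAV-GFP. None had a region within 1 kb in either list. At 15 kb the intervals of both gene sets lay below the share of all genes in AAV-Cre and in AAV-GFP.

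Markers of liver cell types were read the same way, since the chromatin came from whole liver. Of 8 hepatocyte markers, 0 were marked within 1 kb (interval up to 32.4%) and 1, Cyp2e1, within 15 kb (12.5%, interval 2.24 to 47.1%), in each of the lists. The 12 markers of other cells covered endothelium, Kupffer cells and leukocytes, stellate cells and bile duct cells. Of these 12, 7 had a region within 1 kb in AAV-Cre (58.3%, interval 32.0 to 80.7%), namely Adgre1, Des, Epcam, Krt19, Lrat, Pdgfrb and Pecam1. In AAV-GFP 6 did (interval 25.4 to 74.6%), all of these but Adgre1. Among all genes the shares were 23.9% and 16.6%. Cdh5, Stab2, Clec4f, Marco and Ptprc had no region within 1 kb in either list. Within 15 kb the counts were 10 (83.3%, interval 55.2 to 95.3%) and 7 (58.3%, interval 32.0 to 80.7%), beside 41.5% and 27.9% of all genes. Which cells carried the mark at Elovl4, Elovl7, Fads3, Pnpla3 and the Scd genes was not tested, and a share of cells with the mark cannot be told apart from its level per cell.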

How the data were processed

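Each deposited list gives, for every region, its position in mm10, a fold enrichment over input (a ratio), and the −log10 of a p-value and of a q-value, all computed by the authors. The authors ran the AQUAS pipeline for histone ChIP-seq, with bwa 0.7.13, Samtools 1.2, Picard 1.126, MACS and a pooled input control, and kept peaks that overlapped across replicates. Samples were grouped by the labels. Distances were computed to start sites of basic protein-coding transcripts (GENCODE release 21 for mouse), with other basic transcripts for 87 genes, and a region was shared with the other list when at least 1 bp overlapped. All 42 genes, the related lists and the tests were chosen with earlier results of these data known. Genes with a region within 15 kb in either list, genes marked at 1 kb and the 5 farthest from an AAV-Cre region were named. Of the regions near Elovl1, a single one is not reported here. No test between groups was made, as there is 1 list per group. Distances equalled a direct search at 400 of 400 genes per list, with the regions shifted at random. Alternatives were thresholds, windows, start sites and closest-gene assignment. Python 3.11.15, numpy 2.4.6, pandas 2.3.3, SciPy 1.17.1 and matplotlib 3.10.9 were used.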

Additional observations from a re-analysis of the deposited data

How the results depend on the processing

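Counts of marked genes among the 42 were recomputed under 11 alternatives, and 21 of the 33 recomputed counts stayed within 1.5 times the count reported. The number marked in AAV-Cre (14) was 7 with a window of 1 kb (23.9% of all genes), 8 with 5 kb (30.1%) and 27 with 50 kb (61.7%). It was 9 when a region counted for the gene with the closest start site alone (35.1%). The number marked in AAV-GFP (9) moved beyond 1.5 times only with a window of 50 kb, to 18 (46.6% of all genes). The number marked in AAV-Cre only (5) was 3 with the 34586 top-ranked peaks of each list (9.9% of all genes) and 3 with a −log10 p of at least 5 (15.6%). It was 1 with a window of 1 kb (7.62%), 0 with 5 kb (10.2%), 9 with 50 kb (17.2%) and 2 with the closest start site alone (13.1%). With the start sites of every annotated transcript it was 8 (15.7%), through the addition of Acacb, Lpin2 and Srebf2, and Lpin3 was then marked in both lists. Regions with a q-value of 0.05 or lower gave 14, 9 and 5 genes, and those of at least 300 bp in both lists the same counts. Under the 8 settings with a 15 kb window, Elovl4, Elovl7, Fads3, Pnpla3, Scd2, Scd3 and Scd4 were marked in both lists each time, and Sqle in AAV-Cre each time. Dgat1 was marked in AAV-GFP under each of these 8 settings, but with the closest start site alone it was not marked in AAV-Cre. Its AAV-GFP call in that setting rested on regions of 136 and 392 bp with q-values of 0.0671 and 0.605. No paired analysis was possible because each list pools both replicates of its group, and for the same reason no replicate could be left out. Depth is unknown, the lists differ in the properties of their peak calls, and absence of a region is not absence of the mark.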
